A study of Canis lupus familiaris with 4 samples.

Results

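*CCL2*, *CCL7*, *CCL8* and *CCL3* are the monocyte-attracting CC chemokine genes examined here, chosen by the RefSeq transcript of their probe (version ignored) from the 160 targets of a custom canine NanoString panel, so that 4 of 160 targets are described. The panel counts barcoded probes bound to RNA without amplification. It was run on archival, formalin-fixed skin biopsies of 4 dogs, 1 biopsy per dog. They were a 5-year-old spayed female Boxer with erythema multiforme (EM), a 4-year-old spayed female Pomeranian with cell-poor vasculitis (CPV), a 7-year-old neutered male Golden Retriever with pyoderma (case 1) and a 9-year-old neutered male German Shepherd with pyoderma (case 2). The labels call the CPV and pyoderma biopsies controls, and these 3 are named the comparatives below, since they came from inflamed and not from healthy skin. Disease, breed and age cannot be told apart with these dogs, and treatment and biopsy site were not given in the sources used here. Sex cannot be told apart from pyoderma, since both dogs with pyoderma were male and the EM and CPV dogs female.

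CC chemokines are small secreted proteins that draw leukocytes out of the blood and into tissue along a gradient. CCL2, CCL7 and CCL8 are monocyte chemoattractant proteins that act mainly through the receptor CCR2, which classical monocytes carry, and CCL7 and CCL8 also bind further CC receptors. CCL3, a macrophage inflammatory protein, draws monocytes and also T cells. In skin these genes are made by macrophages, dendritic cells, fibroblasts, endothelium and keratinocytes. In the RefSeq gene table of another dog assembly, UU_Cfam_GSD_1.0, *CCL8*, *CCL7* and *CCL2* followed one another on chromosome 9 with no annotated gene between them, and *CCL13* lay directly before *CCL8*. *CCL3* lay elsewhere on the same chromosome, next to *CCL4*. The probe sequences were not used here, so binding of a probe to a related chemokine transcript was not checked.

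Counts over the 160 targets summed to between 517282 and 808877 per biopsy. Background was set in each biopsy from the 8 negative controls, as their mean + 2 SD, at 13.0 to 16.3 counts. All 4 chemokine genes exceeded it in all 4 biopsies, as did 129 of the 160 targets. Counts were divided by the geometric mean of the housekeeping genes *B2M*, *RPL13A* and *HPRT1*, relative to the mean of the 4 biopsies, which gives normalized counts. Limits printed with a value are 95% Poisson limits, or exact binomial limits for ratios, and cover counting error only. Probes differ in efficiency, so a level of 1 gene was never read against that of another, and ratios between genes were compared only between biopsies. In whole biopsies, fewer cells of a type and less RNA per cell cannot be told apart.

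*CCL7* separated the EM biopsy from the other 3 more widely than did the other chemokine genes. *CCL7*, *CCL2* and *CCL8* were lowest in EM, whereas for *CCL3* the EM value fell between those of the comparatives. None of the 4 genes passed the test over the panel, in which 0 of 160 targets (0%) had an adjusted p under 0.05 in edgeR's quasi-likelihood test. Without any test, EM lay below all 3 comparatives for 54 of the 160 targets (33.8%), so that the count of 3 of 4 chemokine genes is read against that share. It lay above all of them for 34 (21.2%), none of which was among the 4 genes.

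For *CCL7*, probed on transcript NM_001010960.1, the EM biopsy gave 31 counts, CPV 262, pyoderma case 1 101 and pyoderma case 2 210. Normalized counts were 25.5 (95% limits 17.3 to 36.1) in EM, 290.4 (256.3 to 327.8) in CPV, 110.7 (90.2 to 134.5) in pyoderma case 1 and 217 (188.6 to 248.4) in case 2. No neighbours in this order had overlapping intervals, and the EM count was less than 2 times its background of 16.3. The comparatives exceeded EM by 4.35-fold in pyoderma case 1, 8.52-fold in pyoderma case 2 and 11.4-fold in CPV. The log2 fold change of EM against the comparatives was −3.01 (standard error 1.02, unadjusted p = 0.0163, adjusted p = 0.714, both by quasi-likelihood in edgeR), and an unadjusted p under 0.05 was reached by 6 of 160 targets (3.75%), 3 of them lower in EM (1.88%). Under the 16 alternatives the adjusted p ran from 0.183 to 0.807.

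*CCL2* (NM_001003297.1), the main attractant of classical monocytes, had 1877 counts in EM, 2947 in CPV, 3214 in pyoderma case 1 and 2572 in case 2. Normalized counts were 1541 (1473 to 1613) in EM, against 2658 (2556 to 2762) in pyoderma case 2, 3267 (3150 to 3387) in CPV and 3522 (3402 to 3646) in pyoderma case 1. The comparatives thus lay close to each other, at 3149 ± 444 (SD, n = 3), and EM lay below all of them with no overlap of intervals. The log2 fold change was −1.03 (standard error 0.753, adjusted p = 0.714 in edgeR's quasi-likelihood test).

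*CCL8* (NM_001005255.1) had 416 counts in EM, 532 in CPV, 430 in pyoderma case 1 and 887 in case 2. Normalized counts were 341.6 (309.6 to 376.1) in EM, 471.2 (427.8 to 518) in pyoderma case 1, 589.7 (540.7 to 642.1) in CPV and 916.5 (857.2 to 978.9) in pyoderma case 2. The 2 pyoderma biopsies differed by 1.95-fold, more than the 1.38-fold between EM and pyoderma case 1. The log2 fold change of EM against the comparatives was −0.95 (standard error 0.775, adjusted p = 0.724 in edgeR's quasi-likelihood test).

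*CCL3* (NM_001005251.1) had 154 counts in EM, 145 in CPV, 173 in pyoderma case 1 and 115 in case 2. Normalized counts were 118.8 (98.1 to 142.6) in pyoderma case 2, 126.5 (107.3 to 148.1) in EM, 160.7 (135.6 to 189.1) in CPV and 189.6 (162.4 to 220) in pyoderma case 1. Every pair of neighbours in this order had overlapping intervals, and the whole range was 1.60-fold. The log2 fold change of EM was −0.31 (standard error 0.78, adjusted p = 0.91 in edgeR's quasi-likelihood test). The RefSeq table lists CCL3L1 and CCL3L3 as synonyms of *CCL3*, so copies of this gene were not resolved.

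**Figure D1:**
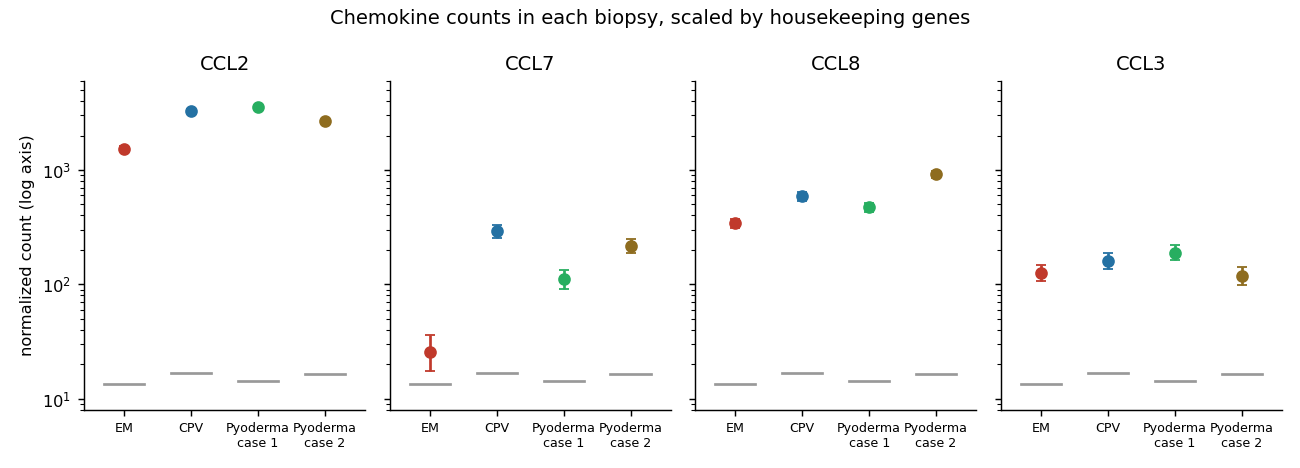
Normalized counts (log axis) of CCL2, CCL7, CCL8 and CCL3 in the EM, CPV and 2 pyoderma biopsies, with bars for 95% Poisson limits and a grey line for the background of each biopsy on the same scale. CCL7 runs from 25.5 in EM to 290.4 in CPV, while CCL3 stays between 118.8 and 189.6.

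The 4 genes did not rank the biopsies alike. With housekeeping scaling EM came last for 3 of them, but the top place went to pyoderma case 1 for *CCL2* and *CCL3*, to CPV for *CCL7* and to pyoderma case 2 for *CCL8*. Pyoderma case 2 was thus the highest biopsy for *CCL8* and the lowest for *CCL3*. Between the 2 dogs with pyoderma, case 2 was higher for *CCL7* by 1.96-fold and for *CCL8* by 1.95-fold, and case 1 was higher for *CCL2* by 1.32-fold and for *CCL3* by 1.60-fold. Across the panel, CPV was highest for 43 of 160 targets (26.9%), pyoderma case 2 for 43 (26.9%) and pyoderma case 1 for 40 (25%). The spread between the highest and the lowest biopsy was 11.4-fold for *CCL7*, 2.68-fold for *CCL8* and 2.28-fold for *CCL2*. Among the 129 targets above background in all biopsies, the median was 2.68-fold, and 10 targets (7.75%), *CCL7* included, were spread at least as widely as *CCL7*. The same count gave 50.4% of targets for *CCL8*, 64.3% for *CCL2* and 91.5% for *CCL3*, which was thus among the evenest targets.

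The place of EM was followed over 9 ways of scaling the counts, which were the 3 housekeeping genes, these genes with each left out in turn, the positive control probes, the panel total, edgeR's TMM, DESeq2's median of ratios and no scaling. EM was lowest for *CCL2* and *CCL7* under all 9, with its interval below those of all comparatives each time, for *CCL8* under 8 and for *CCL3* under 2. EM lay below all comparatives under all 9 scalings for 23 of the 160 targets (14.4%). For *CCL8* the EM interval lay below all others under 4 of the 9, and with the panel total CPV was lowest in place of EM. *CCL7* had the same order under 8 scalings and CPV exchanged places with pyoderma case 2 under the panel total. The top place of *CCL2* and of *CCL3* depended on the scaling, since pyoderma case 1 was highest under 5 and CPV under 4 for each gene, whereas pyoderma case 2 was highest for *CCL8* under all 9. For *CCL3* there were 6 different orders, and its log2 difference between EM and the mean of the comparatives ran from −0.45 to 0.18. That of *CCL2* ran from −1.19 to −0.55, that of *CCL8* from −1.06 to −0.43 and that of *CCL7* from −3.03 to −2.41. The median log2 difference of all targets itself moved from −0.36 to 0.27 over the scalings and was −0.19 with the housekeeping genes. Relative to that median, the EM biopsy differed on the log2 scale by −2.67 for *CCL7*, −0.83 for *CCL2*, −0.70 for *CCL8* and −0.09 for *CCL3*.

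**Figure D2:**
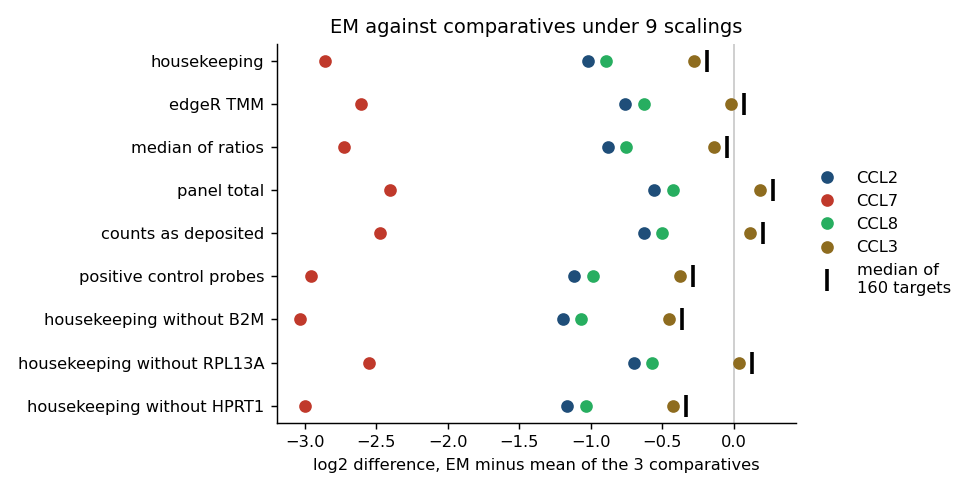
Log2 difference between EM and the mean of the 3 comparatives (x axis) for the 4 chemokine genes under 9 scalings (y axis), with a black bar for the median of the 160 targets under the same scaling. CCL7 lies between −3.03 and −2.41, apart from the other genes, and CCL3 lies on both sides of 0, just below the panel median each time.

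Ratios within a biopsy do not depend on scaling, because both counts carry the same factor. For each 100 counts of *CCL2*, *CCL7* had 1.65 counts in the EM biopsy (exact limits 1.12 to 2.35), 3.14 in pyoderma case 1 (2.55 to 3.83), 8.17 in pyoderma case 2 (7.06 to 9.40) and 8.89 in CPV (7.81 to 10.1). The EM interval lay below the others, and pyoderma case 1 lay apart from pyoderma case 2 and CPV, whose intervals overlapped. As log2 ratios, *CCL7* to *CCL2* was −5.92 in EM, against −4.03 ± 0.83 over the comparatives (SD, n = 3). *CCL7* was therefore lower in EM by more than *CCL2* was.

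The same held for *CCL7* against the other chemokine genes. Per 100 counts of *CCL8* there were 7.45 of *CCL7* in EM (5.00 to 10.7), 23.5 in pyoderma case 1 (18.7 to 29.2), 23.7 in pyoderma case 2 (20.3 to 27.6) and 49.3 in CPV (42.3 to 57.2). The 2 pyoderma biopsies were alike in this ratio within counting error. Set against 100 counts of *CCL3* there were 20.1 of *CCL7* in EM (13.2 to 29.8), 58.4 in pyoderma case 1 (45.2 to 75.1), 180.7 in CPV (147 to 222.9) and 182.6 in pyoderma case 2 (144.8 to 231.3). The log2 ratio of *CCL7* in EM lay below the mean of the comparatives by a difference of −1.89 against *CCL2*, −2.02 against *CCL8* and −2.63 against *CCL3*, each larger than the SD of the comparatives (0.83, 0.61 and 0.95).

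The ratio of *CCL8* to *CCL2* did not set EM apart. Per 100 counts of *CCL2* there were 22.2 of *CCL8* in EM (19.9 to 24.7), 18.1 in CPV (16.4 to 19.8), 13.4 in pyoderma case 1 (12.1 to 14.8) and 34.5 in pyoderma case 2 (31.9 to 37.2). The 2 pyoderma biopsies formed the ends of that range. For *CCL3* there were 8.21 counts for each 100 of *CCL2* in EM (6.92 to 9.67), 4.92 in CPV (4.14 to 5.81), 5.38 in pyoderma case 1 (4.59 to 6.27) and 4.47 in pyoderma case 2 (3.68 to 5.39). The comparatives were alike in this ratio within counting error and EM lay above them, by a log2 difference of 0.74 against their SD of 0.13. Most targets did the same, as the ratio to *CCL2* was higher in EM than in all comparatives for 78 of 128 targets (60.9%), so the place of EM is not particular to *CCL3*. The log2 ratio of *CCL8* to *CCL3* was 1.43 in EM, inside the range of the comparatives from 1.31 to 2.95.

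**Figure D3:**
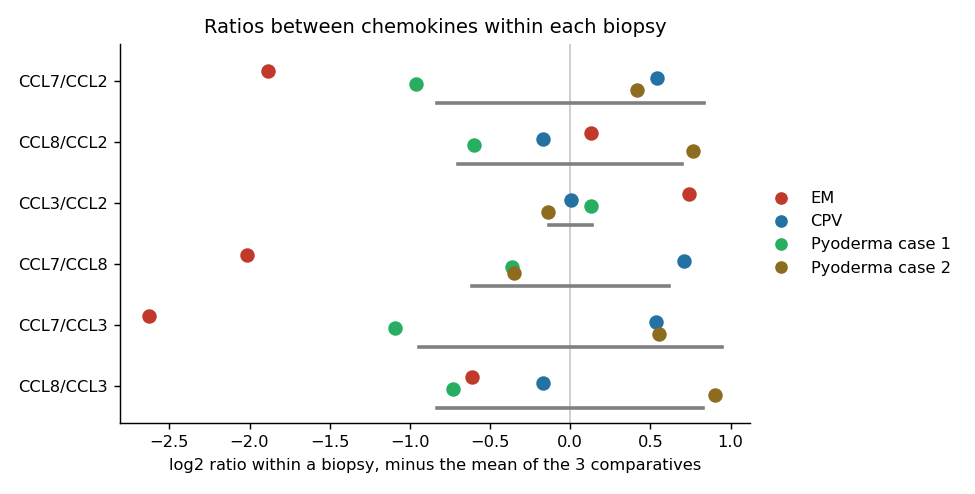
Log2 ratio of 2 chemokine counts within a biopsy, minus the mean of the 3 comparatives (x axis), for the 6 pairs of genes (y axis), with a grey bar for ± 1 SD of the comparatives and small vertical shifts to keep points apart. EM lies left of all comparatives in the 3 ratios with CCL7 as numerator, at −1.89, −2.02 and −2.63, right of them for CCL3/CCL2 at 0.74, and among them for CCL8/CCL2 and CCL8/CCL3.

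Only 5 of the 128 other targets above background in all biopsies (3.91%) had a ratio to *CCL2* that was lower in EM than in every comparative, and *CCL7* was 1 of them. Named after their values were seen, the others were *IL1B*, an inflammatory cytokine gene, *CEACAM1*, an adhesion molecule gene of epithelium and leukocytes, and the unnamed targets XM_003434905.4 and XM_005621530.2. The gap on the log2 scale between EM and the nearest comparative was 0.93 for *CCL7*, 0.88 for XM_005621530.2, 0.50 for XM_003434905.4, 0.24 for *IL1B* and 0.22 for *CEACAM1*. Against *CCL8*, 5 of 128 targets (3.91%) were lower in EM than in every comparative, with the largest gap, 1.66, for *CCL7*, and *CCL28* was among them in place of XM_003434905.4. Against *CCL3* there were 25 of 128 (19.5%).

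Each gene was then set against all other targets in the same way. The ratio of *CCL7* was lowest in EM against 118 of the 128 other targets (92.2%), the largest share of the 129 targets compared. The share was 60.9% for *CCL2*, which stood at place 10, 50.8% for *CCL8*, at place 19, and 30.5% for *CCL3*, at place 51. The median over the 129 targets was 23.4%. *CCL13*, whose gene lies beside *CCL8*, stood at the other end, with a ratio lowest in EM against 0 and highest in EM against 109 of the 128 targets (85.2%), a share exceeded only by that of the pigment gene *DCT*.

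**Figure D4:**
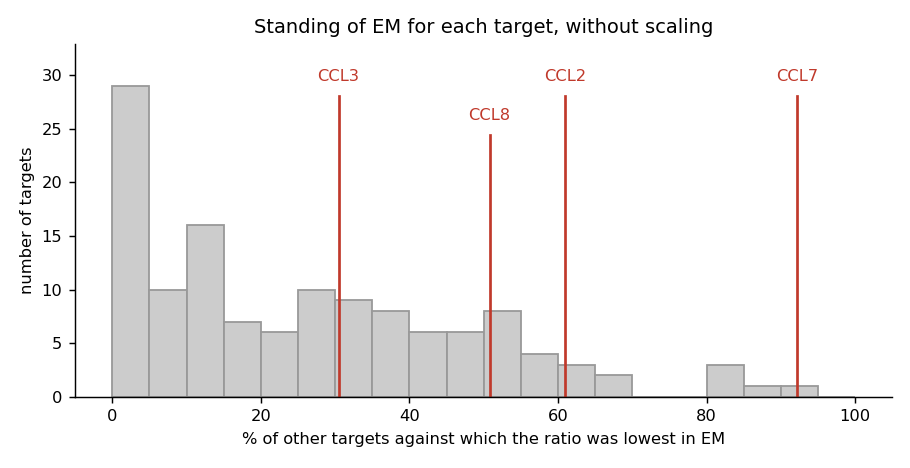
Number of targets (y axis) by the share of the other 128 targets against which a target's ratio was lowest in EM (x axis, %), with red lines for the 4 chemokine genes. CCL7 lies at the far right at 92.2%, CCL2 at 60.9%, CCL8 at 50.8% and CCL3 at 30.5%, against a median of 23.4%.

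Of 7 further chemokine genes listed as attracting monocytes, 4 were paired with a target, and none of them was lowest in EM. *CCL13*, a monocyte chemoattractant protein gene of the same cluster, had 169.2 normalized counts in EM, 95.3 in pyoderma case 1, 30 in pyoderma case 2 and 19.95 in CPV. This order was the reverse of that of *CCL7*, although the intervals of pyoderma case 2 (20.1 to 43.0) and CPV (11.8 to 31.5) overlapped. The CPV count of 18 was close to the background of 15.2. Per 100 counts of *CCL13* there were 15.1 of *CCL7* in EM (9.97 to 22.0), 116.1 in pyoderma case 1 (86.3 to 156.5), 724.1 in pyoderma case 2 (489.6 to 1108) and 1456 in CPV (903 to 2495). No neighbours in that order but the last pair overlapped, and the log2 ratio was lower in EM than in the mean of the comparatives by a difference of −5.04, against an SD of 1.88. The log2 fold change of *CCL13* in EM was 1.80 (standard error 0.92, adjusted p = 0.714 in edgeR's quasi-likelihood test).

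*CCL5*, which draws T cells and monocytes, had a log2 ratio of *CCL2* to it of −0.96 in EM, 1.34 in CPV, 1.38 in pyoderma case 1 and 0.45 in pyoderma case 2. EM lay below all comparatives in this ratio, as it did for *CCL2* against 60.9% of the other targets. With housekeeping scaling *CCL5* itself was highest in EM, at 3006 normalized counts against 1294 to 1943 in the comparatives. Its ratio to another target was highest in EM for 80 of 128 targets (62.5%). The low ratio in EM thus came with less *CCL2* and also with more *CCL5*. *CCL4*, the neighbour of *CCL3*, had 416.4 normalized counts in EM, 148.5 in CPV, 328.8 in pyoderma case 1 and 427.8 in pyoderma case 2. Set against 100 counts of *CCL4* there were 30.4 of *CCL3* in EM (25.2 to 36.5), 108.2 in CPV (85.0 to 137.9), 57.7 in pyoderma case 1 (47.6 to 69.8) and 27.8 in pyoderma case 2 (22.4 to 34.2). In this ratio EM and pyoderma case 2 overlapped and CPV was highest. *CX3CL1*, an attractant of patrolling monocytes, had 224.2 normalized counts in EM, within the 127.1 to 253.9 of the comparatives. Of these 4 genes 0 passed in either direction, with adjusted p between 0.714 and 0.91 in edgeR's quasi-likelihood test. The median log2 difference was 0.80 over these 4 genes, −0.96 over *CCL2*, *CCL7*, *CCL8* and *CCL3*, and −0.19 over all 160 targets.

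Of 12 other CC chemokine genes listed, 10 were paired with a target, and 0 passed the test in either direction. Together with *CCL13*, *CCL4* and *CCL5* this gave 13 CC chemokine genes beside the 4 described. CPV was lowest for 11 of these 13 with housekeeping scaling, and for 6 to 12 of them over the 9 scalings. Of the 9 genes above background in all biopsies, CPV was lowest for 7 with housekeeping scaling and for 4 to 8 over the scalings. Across the panel CPV was lowest for 51 of 160 targets (31.9%). Among *CCL2*, *CCL7*, *CCL8* and *CCL3* it was lowest for 0 with housekeeping scaling and for 0 to 2 over the scalings. EM was highest for 5 of the 13 and lowest for 2, *CCL26* and *CCL28*, against 21.2% and 33.8% of all targets. Of the 9 genes above background in all biopsies it was highest for 2. *CCL28*, an epithelial attractant of lymphocytes, had 38.6 normalized counts in EM, 75.4 in CPV, 199.5 in pyoderma case 1 and 158.1 in pyoderma case 2. *CCL24*, an eosinophil attractant, had 165.9 in EM, 47.1 in pyoderma case 1, 17.6 in pyoderma case 2 and 3.33 in CPV, where its count lay within background.

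**Figure D5:**
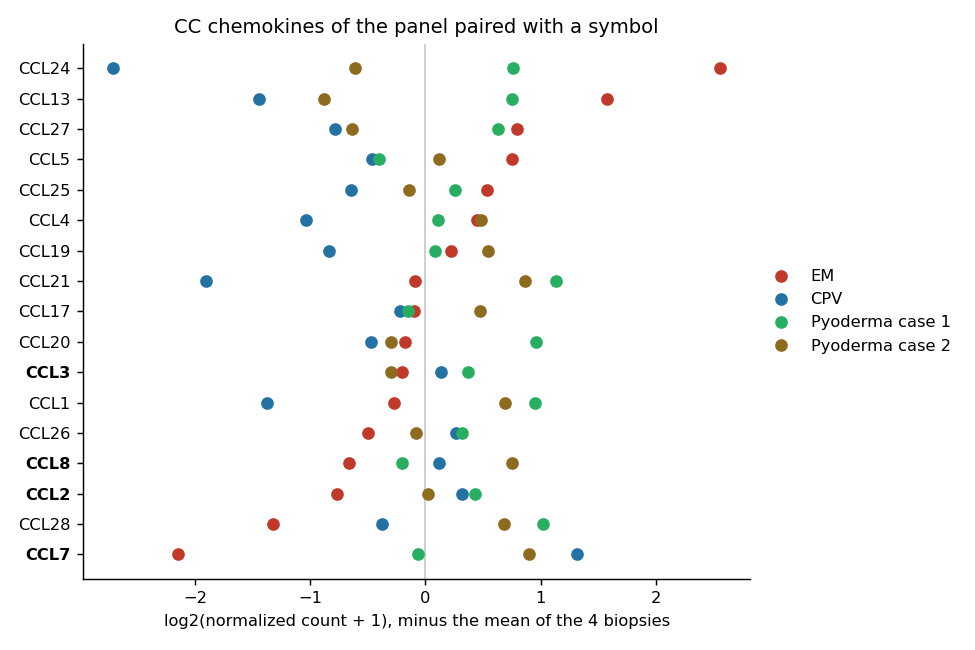
Log2(normalized count + 1) of the 17 CC chemokine genes paired with a symbol (y axis, the 4 described in bold), minus the mean of the 4 biopsies (x axis), sorted by the difference between EM and the comparatives. CCL7 is at the bottom, with EM farthest left and CPV farthest right, and CCL24 and CCL13 at the top show the opposite order.

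Likeness of pattern was measured as the SD over the 4 biopsies of the log2 ratio of 2 targets, which is small where they move in parallel and does not depend on scaling. For *CCL2* the nearest of 128 targets were *CCL26* (0.17), XM_547403.5 (0.18) and *HIF1A*, a regulator of the response to low oxygen (0.21), although *CCL26* had only 29 to 39 counts. For *CCL3* they were *IL10*, an anti-inflammatory cytokine gene (0.15), the housekeeping gene *HPRT1* (0.19) and XM_536878.6 (0.19). For *CCL8* they were *KLRD1*, a receptor of natural killer and cytotoxic T cells (0.29), *SELPLG*, a selectin ligand of leukocytes (0.32), and *IFNG*, the interferon-gamma gene (0.32). No target was that close to *CCL7*, for which the smallest values were 0.58 for *CEACAM1*, 0.97 for *IFNG* and 0.99 for XM_003434905.4. The median over the 128 targets was 1.70 for *CCL7*, 0.90 for *CCL8*, 0.80 for *CCL2* and 0.68 for *CCL3*, the same order as their spreads. A large value can thus reflect the wide range of *CCL7* as well as a different pattern. *CEACAM1* had 315.4 normalized counts in EM, 837.3 in pyoderma case 1, 1005 in pyoderma case 2 and 2083 in CPV, the same order as *CCL7*.

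The chemokine genes were not closest to each other. Among the 128 targets, *CCL3* was the 11th nearest to *CCL2* (0.39), *CCL8* the 33rd (0.57) and *CCL7* the 102nd (1.16). From *CCL7*, *CCL8* was the 9th nearest (1.13), *CCL2* the 12th (1.16) and *CCL3* the 49th (1.52). These values describe 4 biopsies and carry no test.

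Receptors could not be set beside the chemokines, since 0 of the 17 listed were paired with a target. Of 27 monocyte, macrophage and dendritic cell genes, 3 were paired, and 0 passed the test in either direction. *CD163*, a scavenger receptor of macrophages, had 570.8 normalized counts in EM, 597.3 in pyoderma case 1, 734.7 in pyoderma case 2 and 1375 in CPV. *CD86*, a costimulatory molecule of antigen-presenting cells, had 473.9 in EM, 676.2 in pyoderma case 1, 869 in pyoderma case 2 and 1262 in CPV. With housekeeping scaling both had the order of *CCL7*, over a narrower range of 2.41-fold for *CD163* and 2.66-fold for *CD86*. The remaining paired gene, *IL10*, did not have that order. It had 104.3 in EM, 135.2 in CPV, 139.2 in pyoderma case 1 and 79.6 in pyoderma case 2, so EM fell between comparatives. For *CD163*, EM and pyoderma case 1 lay close together, and with no scaling pyoderma case 1 was lowest in place of EM. The ratio to other targets was lowest in EM against 32.0% of them for *CD163*, 54.7% for *CD86* and 92.2% for *CCL7*. Per 100 counts of *CD163* there were 4.46 of *CCL7* in EM (3.01 to 6.39), 18.5 in pyoderma case 1 (14.8 to 22.9), 21.1 in CPV (18.4 to 24.2) and 29.5 in pyoderma case 2 (25.2 to 34.5). The EM interval lay below the others, and the log2 ratio of *CCL7* to *CD86* in EM also lay below all comparatives, by a gap of 1.61 to the nearest. For *CCL2*, *CCL8* and *CCL3* the log2 ratios to *CD163* and to *CD86* in EM fell between those of the comparatives.

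Of 19 cytokine and signalling genes listed as inducers of these chemokines, 9 were paired, and 0 passed the test in either direction. With housekeeping scaling EM was lowest for 5 of the 9, against 33.8% of all targets. Of these 5, *TNF*, *IL1B* and *IFNG* were above background in EM. *IL1B* had 28.7 normalized counts in EM, 72.1 in CPV, 167.7 in pyoderma case 1 and 137.4 in pyoderma case 2. *TNF* had 87.1 in EM, 117.5 in CPV, 172.1 in pyoderma case 1 and 156 in case 2. With the panel total, and without *RPL13A* in the scaling, CPV was lowest for *TNF* in place of EM. The log2 ratio of *CCL7* to *TNF* was −1.77 in EM, below all comparatives, whose mean was 0.38 ± 0.97 (SD, n = 3). The log2 ratio of *CCL7* to *IL1B* was −0.18 in EM, and the comparatives ran from −0.60 to 2.01 around it. The median log2 difference of the 9 genes was −0.77.

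The tissue in the biopsies also differed. The collagen gene *COL1A1* ranged over 32.1-fold, from 4310 normalized counts in CPV to 138500 in pyoderma case 2, and the basal keratin gene *KRT14* over 6.66-fold, from 13030 in pyoderma case 2 to 86770 in CPV. For both, EM fell between comparatives. Of the listed markers of other cell types, 1 of 10 for T cells, 1 of 9 for cytotoxic cells, 1 of 7 for B cells, 2 of 5 for mast cells, 1 of 6 for neutrophils, 4 of 8 for keratinocytes, 1 of 6 for fibroblasts and 0 of 8 for endothelium were paired with a target. EM was lowest for *KLRD1*, at 46.8 normalized counts against 55.9 to 97.6, and for *CEACAM1*, the only paired gene listed for neutrophils. *CEACAM1* is also made by epithelium and other leukocytes, so it was not read as a measure of neutrophils. EM was highest for all 3 of the 7 melanocyte genes that were paired, *DCT*, *TYR* and *MC1R*. The part of cell or tissue content in the chemokine values was not tested.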

How the data were processed

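RNA from formalin-fixed, paraffin-embedded skin was hybridized by the authors to the custom panel on a NanoString nCounter platform. The deposited values are raw counts per probe, whole numbers with no scaling, for 160 targets, 6 positive and 8 negative controls, which were told apart by their counts. Targets are listed by RefSeq transcript, and 72 of 160 were paired with a symbol, versions ignored, in the table of UU_Cfam_GSD_1.0. The other 88 were kept without a name.

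The authors name 4 housekeeping genes, of which *CCZ1* was not paired, so 3 were used. Single-gene differences used log2 values with a pseudocount of 1. EM was compared with the 3 comparatives over all targets, unfiltered, with the quasi-likelihood test of edgeR 4.0.16 (R 4.3.3) and Benjamini-Hochberg adjustment at 0.05, on the assumption that the single EM biopsy varies as the others do. Standard errors are the fold change (log2) over the root of F. The fit was tested on simulated data. An exact permutation test of 1 biopsy against 3 cannot go below p = 0.25. Alternatives were 8 other scalings, filters at 20 counts in any or in every biopsy, pseudocounts of 0.5 and 10, subtracting the mean negative control, DESeq2 1.42.0, 3 groups, and leaving out each comparative. Other steps used Python 3.11.15 and scipy 1.17.1.

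Named genes were taken from the 4 described, the housekeeping genes and the paired genes of the chemokine, receptor, monocyte and inducer lists. Also named were the 3 targets most alike to each chemokine gene, and genes of other lists where they mark a cell type. Not every paired gene of these lists was given its own values. Targets named after their values were seen are given as such. Members and lists were chosen with earlier results of these data known.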

Additional observations from a re-analysis of the deposited data

How the results depend on the processing

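With edgeR's quasi-likelihood test 0 targets passed (6 at an unadjusted p under 0.05), and the count was also 0 under 14 of 16 alternatives, DESeq2 included (11 unadjusted). It was 2 with EM, CPV and pyoderma as 3 groups, and from 0 to 2 with a comparative left out, the 2 coming without CPV. Neither of the 2 is among the 4 chemokine genes. For *CCL2* the log2 difference of −1.02 moved to −0.76 with edgeR's TMM, −0.55 with the panel total, −0.63 with no scaling and −0.70 without *RPL13A* in the scaling. For *CCL3* the difference of −0.28 moved to 0.18 with the panel total and 0.11 with no scaling, and its fold change in the fit reversed to 0.16, 0.093 and, without *RPL13A*, 0.0056. These scalings shift every gene of a biopsy alike. Of the log2 differences 50 of 56, and 30 of 30 ratio differences, stayed within 1 SD of the comparatives from the value reported. With a comparative left out, log2 differences ran from −1.14 to −0.93 for *CCL2*, −3.25 to −2.56 for *CCL7*, −1.10 to −0.62 for *CCL8* and −0.46 to −0.13 for *CCL3*. Ratio differences then ran from −2.37 to −1.62 for *CCL7* to *CCL2*, −2.20 to −1.66 for *CCL7* to *CCL8*, −3.17 to −2.35 for *CCL7* to *CCL3*, 0.67 to 0.81 for *CCL3* to *CCL2*, −0.17 to 0.51 for *CCL8* to *CCL2* and −0.98 to −0.16 for *CCL8* to *CCL3*. The place of EM, counted from the lowest, changed from 1 to 2 for *CCL8* with the panel total. For *CCL3* it changed from 2 to 3 with the panel total, no scaling and without *RPL13A*, and to 1 without *B2M* or *HPRT1*. No paired analysis was possible because each biopsy came from a different dog, with a single dog for EM and for CPV. With the mean negative control subtracted, the log2 difference of *CCL7*, whose EM count was near background, was −3.28.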
